A study of Mus musculus with 6 samples.

Results

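Liver sinusoidal endothelial markers are represented here by 10 genes, Stab1, Stab2, Lyve1, Clec4g, Pecam1, Kdr, Oit3, Fcgr2b, Mrc1 and Bmp2, which were chosen as known markers of this cell type and matched by symbol among the 40803 genes of the count table. All 10 were found and all 10 passed the filter on low counts that left 16327 genes for testing. Bulk liver RNA had been sequenced from 6 male C57BL6 mice, 3 given rAAV8-Scramble and 3 given rAAV8-Hnf1aos1, with 1 library per mouse. The vector rAAV8, a recombinant adeno-associated virus, mainly enters hepatocytes and in both groups carried an EGFP reporter and a hairpin RNA driven by the U6 promoter, directed at the lncRNA Hnf1aos1 in the rAAV8-Hnf1aos1 (knockdown) group and of a scrambled sequence in the rAAV8-Scramble (scramble) group. The mice were about 6 weeks old when they received 100 µL of virus through the tail vein, were fed normally and were examined 4 weeks later. The comparison asks how the markers of a cell type lying next to the hepatocytes stood after Hnf1aos1 knockdown.

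Sinusoidal endothelial cells line the capillaries of the liver lobule. They have open pores and no continuous basement membrane, so that plasma reaches the hepatocytes directly. They clear waste macromolecules and immune complexes from the blood through scavenger, mannose and Fc receptors, respond to VEGF from hepatocytes, and release BMP ligands that set hepcidin production and thereby iron uptake. Several of these receptors are also made by macrophages, among them Mrc1, Stab1, Lyve1 and Fcgr2b, and bulk libraries do not assign a transcript to a cell. In such libraries fewer cells of a type and less RNA per cell cannot be told apart.

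RefSeq start regions on GRCm38.p6 were at hand for 6 of the 10 genes (Stab1, Stab2, Clec4g, Kdr, Fcgr2b and Mrc1). The 250 bases before each start were searched on both strands for 12 short motifs. Those tied to endothelial identity were AGGAAG and the related core CCGGAA, bound by ETS factors that are active throughout endothelium, AGATAA, bound by GATA factors such as Gata4, which is needed for sinusoidal identity, TGCTGA, the core read by large MAF proteins, and AACAAT, the core read by many SOX proteins. General elements were TGANTCA for the stress-responsive factor AP-1, TTGCNNAA for the hepatic C/EBP family, CANNTG as the E-box of helix-loop-helix proteins, GGGCGG as the GC box of housekeeping promoters, and TATAAA as the TATA box, with the MEF2 core and the interferon-stimulated response element. AGGAAG is displayed because, after the matches had been seen, it was the one held by the most regions relative to its frequency, 4 of the 6 (Stab1, Stab2, Clec4g and Mrc1) against 29.5% of the 32851 start regions in the table. The E-box was also in 4 of the 6, against 66.2% of all, the GC box in 2, CCGGAA, the MAF core and the TATA box in 1 each, and the other 6 motifs, AGATAA among them (9.99% of all), in 0. A choice made in this way among 12 motifs and 6 genes supports nothing about ETS factors here, and a match is a description of the letters and not a bound site. Shown here are the regions of Stab2, the gene whose groups of libraries did not overlap, and of Clec4g and Mrc1, the most abundant markers per length, with AGGAAG of either strand in capitals:

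Stab2, chr10:87007943-87008192, minus strand: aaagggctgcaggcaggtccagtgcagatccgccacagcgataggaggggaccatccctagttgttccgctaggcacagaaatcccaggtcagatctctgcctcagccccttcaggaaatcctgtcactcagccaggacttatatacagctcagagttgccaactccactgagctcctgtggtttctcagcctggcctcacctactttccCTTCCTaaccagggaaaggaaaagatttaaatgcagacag
Clec4g, chr8:3720652-3720901, minus strand: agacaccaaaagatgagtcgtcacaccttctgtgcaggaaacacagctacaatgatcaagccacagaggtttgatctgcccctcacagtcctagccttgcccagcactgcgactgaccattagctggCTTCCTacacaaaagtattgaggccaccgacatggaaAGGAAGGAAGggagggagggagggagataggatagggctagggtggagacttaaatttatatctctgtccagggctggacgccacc
Mrc1, chr2:14229164-14229413, plus strand: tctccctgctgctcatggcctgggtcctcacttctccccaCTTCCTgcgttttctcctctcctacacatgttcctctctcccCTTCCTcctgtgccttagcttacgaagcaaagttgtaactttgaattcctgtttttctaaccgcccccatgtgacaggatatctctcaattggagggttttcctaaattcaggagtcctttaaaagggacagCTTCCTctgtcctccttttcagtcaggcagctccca

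The Stab2 region held 1 match, and the Clec4g and Mrc1 regions 3 each, of which 2 in Clec4g share bases.

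Gene counts summed to between 14704746 and 19462398 per library, and all 3 knockdown libraries were deeper than all 3 scramble libraries. Hnf1aos1 itself lay between 491 and 620.3 normalized counts in the scramble libraries and at 278, 258 and 433 in knockdown replicates 1, 2 and 3 (log2 fold change −0.74, standard error 0.195, edgeR adjusted p = 0.0625). Knockdown replicate 3 was the highest of its group. Normalized counts are raw counts corrected for library size by TMM, on the scale of an average library. Called genes are those for which edgeR's quasi-likelihood test gave an adjusted p (Benjamini-Hochberg, over all genes tested) under 0.05. Of the 16327 genes, 6.32% were called, 3.09% higher and 3.23% lower after knockdown. This division depended on the scaling: 505 higher and 527 lower genes became 319 and 729 with library totals and 3030 and 364 when library sizes came from the spike-in RNAs, which shifted the median of all genes to 0.20 on the log2 scale.

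Per transcript length, the 10 markers lay within 7.76 and 29.6 TPM in the scramble group. On the TPM scale of the deposited table, the scramble group had 29.6 ± 1.43 (SD, n = 3) for Mrc1, the mannose receptor, and 28.9 ± 0.434 (SD, n = 3) for Clec4g, a C-type lectin of sinusoidal endothelium. Fcgr2b, the inhibitory IgG receptor, followed with 26.7 ± 0.977 (SD, n = 3), and Stab2, the hyaluronan scavenger receptor, with 25.8 ± 0.458 (SD, n = 3). The middle of the order held Oit3, a zona pellucida domain protein, with 21.7 ± 0.79 TPM (SD, n = 3), Stab1, the scavenger receptor related to Stab2, with 18.3 ± 0.889 TPM (SD, n = 3), and Kdr, the main VEGF receptor, with 17.7 ± 2.21 TPM (SD, n = 3). Lowest were the adhesion molecule Pecam1 at 14.0 ± 0.83 TPM (SD, n = 3), the ligand Bmp2 at 11.8 ± 1.11 TPM (SD, n = 3) and Lyve1, a hyaluronan receptor, at 7.76 ± 0.774 TPM (SD, n = 3). Neighbours in this order whose scramble libraries overlapped were Mrc1 with Clec4g, Fcgr2b with Stab2, and Stab1 with Kdr. In the knockdown group the order was the same apart from the first and the last of those pairs, in which the genes changed places. No marker was near 0 in any library, with raw counts of 128 to 2065, so that counting error alone came to between 2.2% and 8.84% of a value. The 10 TPM values summed to 196 to 206 in the scramble and to 161 to 199 in the knockdown libraries.

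**Figure D1:**
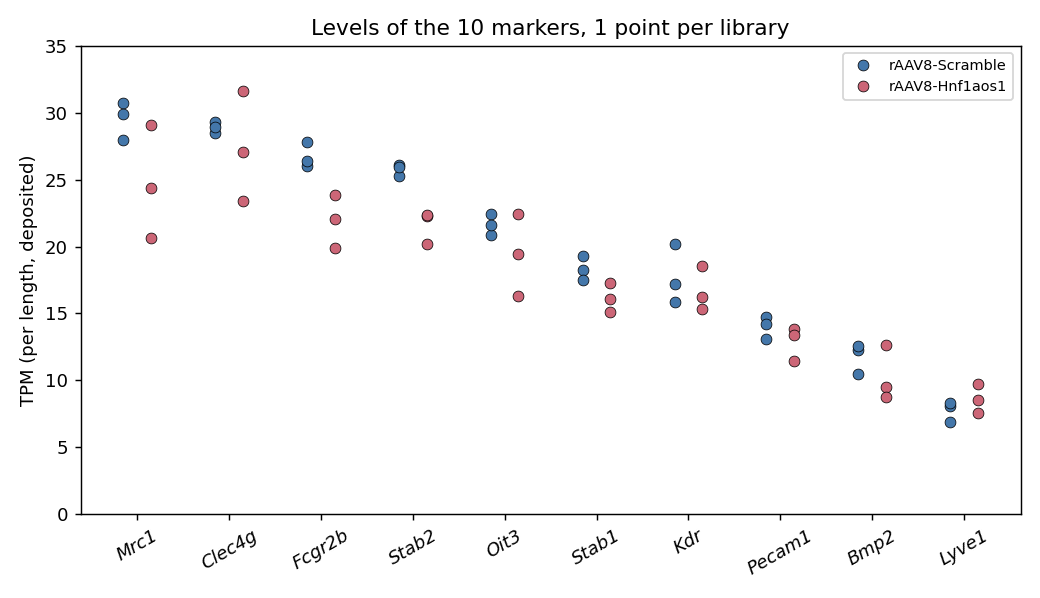
Levels of the 10 markers in TPM, a unit per transcript length (vertical axis, linear from 0), with 1 point per library, blue for rAAV8-Scramble and red for rAAV8-Hnf1aos1, and genes ordered by their scramble mean. Mrc1 and Clec4g lie highest and Lyve1 lowest in both groups, and the red points lie under the blue without overlap for Stab1, Stab2 and Fcgr2b.

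None of the 10 markers was called after knockdown. By edgeR 0 of 10 were called, where 6.32% of all genes were, and 0 of 10 had an unadjusted p under 0.05, where 23.4% of all genes did. DESeq2 also called 0 of 10 (7.8% of all genes) with 0 at an unadjusted p under 0.05, and limma's voom called 0 of 10 (5.52% of all genes) with 1 at an unadjusted p under 0.05, Stab2. Log2 fold changes ran from −0.21 for Fcgr2b to 0.22 for Lyve1 with a median of −0.09, beside −0.00040 over all genes. Below 0 lay 9 and above it 1, but with library sizes from the spike-ins 9 lay above 0 and 1 below. In that scaling the median of the markers was 0.11 and that of all genes 0.20, so that relative to all genes the markers stood at −0.09 in both. Every 95% interval included 0, and 9 of the 10 intervals lay within 0.5 on the log2 scale in both directions, the exception being Lyve1. Over the 10 genes, the intervals reached from −27.1% (Bmp2) to 43.5% (Lyve1) relative to the scramble level.

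**Figure D2:**
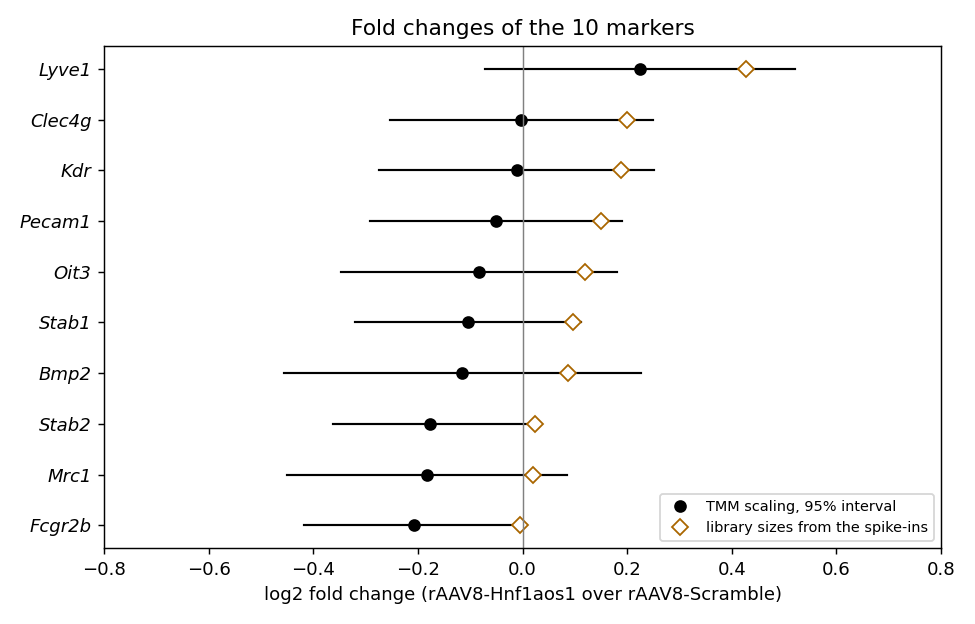
Log2 fold change of each marker, rAAV8-Hnf1aos1 over rAAV8-Scramble (horizontal axis), with filled points and lines for edgeR's estimate and its 95% interval under TMM scaling and open diamonds for the estimate with library sizes from the spike-ins. All 10 lines cross 0, from −0.46 at the lowest end (Bmp2) to 0.52 at the highest (Lyve1), and the diamonds lie to the right of the points.

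Among the scavenger receptors of the 10 markers, Stab2 was the one whose groups separated in normalized counts. It takes up hyaluronan and other glycosaminoglycans from the blood. Its normalized counts were 2064, 2016 and 1959.9 in scramble replicates 1, 2 and 3 and 1766, 1703 and 1870.3 in knockdown replicates 1, 2 and 3. All 3 knockdown libraries lay below all 3 scramble libraries (p = 0.1 in an exact permutation test, two-sided, and no smaller value is possible with 3 against 3). Stab2 was the only one of the 10 markers without overlap in this direction, where 13.7% of all genes were, and none lay wholly higher, where 15.2% of all genes did. The means were 2014 ± 52.3 (SD, n = 3) and 1779.8 ± 84.5 (SD, n = 3). The log2 fold change of −0.18 (95% interval −0.36 to 0.0058, edgeR adjusted p = 0.227) was not called, and it was 0.024 with library sizes from the spike-ins.

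Stab1 binds oxidized lipoproteins and the matrix protein SPARC. Normalized counts of Stab1 were 1148, 1226 and 1055 in scramble mice 1 to 3 against 956.5, 1080.5 and 1152 in knockdown mice 1 to 3. The groups overlapped, with knockdown replicate 1 the lowest of the 6. A log2 fold change of −0.10 (95% interval −0.32 to 0.11, edgeR adjusted p = 0.561) was obtained, and 0.10 with library sizes from the spike-ins.

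Mrc1 clears mannose-bearing glycoproteins and collagen fragments, and Kupffer cells share it to some degree. It had 1269, 1248 and 1105 normalized counts in scramble mice 1 to 3 against 1011, 910.4 and 1269.8 in knockdown mice 1 to 3. Knockdown replicate 3 was thus level with the highest scramble library while the other two knockdown libraries lay below all of them. Its log2 fold change was −0.18 (95% interval −0.45 to 0.08, edgeR adjusted p = 0.395), −0.33 without knockdown replicate 3 (edgeR adjusted p = 0.064) and 0.020 with library sizes from the spike-ins.

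Fcgr2b binds IgG immune complexes and, in the liver, is found mostly on sinusoidal endothelium. Normalized counts of 819, 773 and 742.4 in scramble mice 1 to 3 against 652, 625 and 742.7 in knockdown mice 1 to 3 were measured. The overlap rested on the third replicates, which differed by less than 1 normalized count. Fcgr2b had the lowest adjusted p of the 10 (log2 fold change −0.21, 95% interval −0.42 to 0.0013, edgeR adjusted p = 0.217), and its fold change was −0.0052 with library sizes from the spike-ins. Fcgr2b and Fcgr3 are similar over their extracellular part and only uniquely mapped reads were counted, so that the split of reads between them is uncertain.

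Clec4g, whose start region is given above, is a lectin of sinusoidal and lymph node endothelium. Normalized counts of Clec4g were 545, 567 and 530.1 in scramble mice 1 to 3 against 519.7, 478 and 641 in knockdown mice 1 to 3. The scramble libraries lay inside the range of the knockdown libraries. The means were 547 ± 18.8 (SD, n = 3) and 546 ± 84.8 (SD, n = 3). A log2 fold change of −0.0025 (95% interval −0.25 to 0.25, edgeR adjusted p = 0.994) was the smallest of the 10 under TMM scaling, and with library sizes from the spike-ins it was 0.20.

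Lyve1 is a hyaluronan receptor of lymphatic and sinusoidal endothelium and of some tissue macrophages. It was the only marker with a higher mean after knockdown, with 164, 140.5 and 161 normalized counts in scramble mice 1 to 3 against 197, 184 and 162 in knockdown mice 1 to 3. The groups overlapped through knockdown replicate 3, which lay below scramble replicate 1. The means were 155 ± 12.8 (SD, n = 3) and 181 ± 17.8 (SD, n = 3). Its log2 fold change of 0.22 (95% interval −0.07 to 0.52, edgeR adjusted p = 0.345) was not called. With library sizes from the spike-ins it was 0.43 and Lyve1 was called (edgeR adjusted p = 0.0406), as the only 1 of the 10 and beside 20.8% of all genes in that scaling. It was also the least abundant marker, with the largest counting error.

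The vascular markers Pecam1 and Kdr gave no call either. Pecam1, an adhesion molecule at endothelial junctions in all vessels, had 381, 372 and 324 normalized counts in scramble mice 1 to 3 against 359, 315 and 366 in knockdown mice 1 to 3. The groups overlapped over most of their range. A log2 fold change of −0.05 (95% interval −0.29 to 0.19, edgeR adjusted p = 0.824) was obtained for Pecam1, and 0.15 with library sizes from the spike-ins. Kdr transmits the VEGF signal that maintains the pores of the sinusoid. Normalized counts of Kdr were 1045, 1240.3 and 924 in scramble mice 1 to 3 against 992, 997 and 1196 in knockdown mice 1 to 3. All 3 knockdown libraries lay inside the scramble range, and the log2 fold change was −0.011 (95% interval −0.27 to 0.25, edgeR adjusted p = 0.965), with 0.19 under library sizes from the spike-ins.

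The secreted products were Bmp2 and Oit3. Bmp2 is one of the ligands by which sinusoidal endothelium drives hepcidin in hepatocytes. It had 339, 351 and 278 normalized counts in scramble mice 1 to 3 against 264, 258 and 371 in knockdown mice 1 to 3. Knockdown replicate 3 was the highest of all 6 libraries and the other two knockdown libraries were the lowest. Bmp2 had the widest spread of the 10 within the knockdown group, a coefficient of variation of 21.5% against 12.1% in the scramble group. The log2 fold change was −0.12 (95% interval −0.46 to 0.23, edgeR adjusted p = 0.700), and 0.087 with library sizes from the spike-ins. Oit3 had 440.1, 479 and 437 normalized counts in scramble mice 1 to 3 against 412, 367 and 499.96 in knockdown mice 1 to 3, again with knockdown replicate 3 above all scramble libraries and the other two below them. For Oit3 the log2 fold change was −0.08 (95% interval −0.35 to 0.18, edgeR adjusted p = 0.725), and 0.12 with library sizes from the spike-ins.

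**Figure D3:**
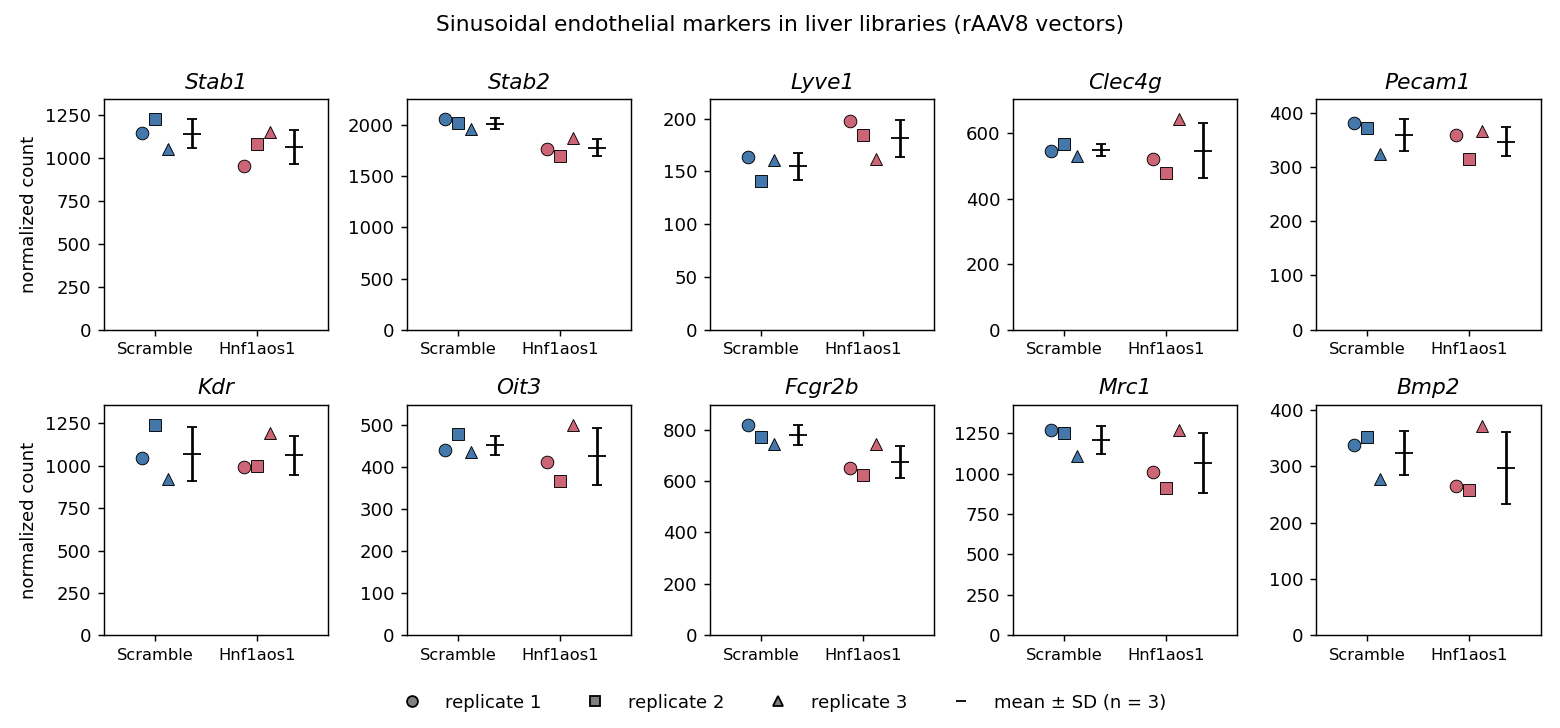
Normalized counts of the 10 markers (vertical axes, linear from 0, a separate scale per gene) in the scramble (blue) and knockdown (red) libraries, with circles, squares and triangles for replicates 1, 2 and 3 and black bars for the mean and SD of each group (n = 3). The triangle of the knockdown group is the highest of its group for 9 of the 10 genes, and the groups are apart only for Stab2.

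In normalized counts, single mice stood apart in most of the markers at once. Knockdown replicate 3 held the highest value of its group for 9 of the 10 markers, all but Lyve1, and knockdown replicate 2 the lowest for 7 (Stab2, Clec4g, Pecam1, Oit3, Fcgr2b, Mrc1 and Bmp2). Scramble replicate 3 held the lowest value of its group for 9, all but Lyve1. In TPM, scramble replicate 3 was not the lowest of its group for Stab2, Clec4g, Oit3 and Fcgr2b either. Stab2, for example, had 26.1, 25.3 and 25.9 TPM in scramble mice 1 to 3. Knockdown replicate 3 was not the highest of its group in TPM for Pecam1. How often these libraries were lowest or highest over all genes was not counted. Summed over the 10 genes, the normalized counts were 8214, 8413 and 7516 in scramble mice 1 to 3 against 7129, 6918 and 8271 in knockdown mice 1 to 3, so that 1 knockdown library lay inside the scramble range and the other two lay below it. Coefficients of variation ran from 2.6% to 21.5%, and 8 of the 10 were larger in the knockdown group. Single mice moved the median fold change of the markers accordingly. It was −0.19 without knockdown replicate 3, with Stab2, Fcgr2b, Mrc1 and Bmp2 at an unadjusted p under 0.05 (26.5% of all genes in that fit) and 0 called (11.2% of all genes), and −0.0015 without knockdown replicate 2, with 5 markers above and 5 below 0. Knockdown replicate 3 was also the library of its group with the most Hnf1aos1, as given above, and the part of the remaining Hnf1aos1 in this was not tested.

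On the TPM scale, which divides by everything in the library including the spike-ins, 3 of the 10 markers lay lower after knockdown without overlap (Stab1, Stab2 and Fcgr2b), where 19.7% of all genes did. Limma on log2(TPM + 0.1) called 0 of the 10, where it called 3.83% of all genes. Stab2 and Fcgr2b had an unadjusted p under 0.05 in that fit, where 22.9% of all genes did, and the median of the 10 was −0.18 on that scale.

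Ratios of 2 markers within a library do not depend on the scaling of libraries. Of the 45 such ratios, taken on raw counts, 7 did not overlap between the groups. Among the ratios between any 2 genes tested, 28.3% did not overlap. Those were taken on normalized counts plus 1, which differs most at low counts. The 7 are thus a smaller share than among all gene pairs. They were singled out after their values were seen and are given as description only. Lyve1 took part in 2 of the 7. For 1 Lyve1 count there were 12.6, 14.4 and 12.2 Stab2 counts in scramble mice 1 to 3 against 8.95, 9.24 and 11.5 in knockdown mice 1 to 3. For 1 Fcgr2b count there were 0.201, 0.182 and 0.216 Lyve1 counts in scramble mice 1 to 3 against 0.303, 0.295 and 0.218 in knockdown mice 1 to 3. Both ratios moved toward Lyve1, by the least in knockdown replicate 3. The other 5 were Clec4g to Fcgr2b, Clec4g to Mrc1, Clec4g to Oit3, Pecam1 to Fcgr2b and Stab2 to Pecam1, with Clec4g higher after knockdown relative to its 3 partners. The Clec4g to Mrc1 ratio went from 0.455 ± 0.0252 (SD, n = 3) to 0.515 ± 0.01 (SD, n = 3).

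Other genes of sinusoidal and general endothelium were not called by edgeR either. Of 20 further genes known from sinusoidal endothelium, all tested, 15 lay below 0 and 5 above, with a median log2 fold change of −0.14. By edgeR 0 of them were called (6.32% of all genes) and 3 had an unadjusted p under 0.05 (23.4% of all genes). These were Gata4, the sinusoidal identity factor (0.34, edgeR adjusted p = 0.0613), Ctsl, a lysosomal protease that is abundant in many cells (0.68, edgeR adjusted p = 0.0618), and Cdh13, an adiponectin-binding cadherin (−0.58, edgeR adjusted p = 0.151). DESeq2 called 1 of the 20, Ctsl, and voom 0. Bulk libraries do not show which cells held these transcripts. Ehd3, an endocytic trafficking protein, had the next highest counts of this list after Ctsl, at 1488, 1783 and 1401 normalized counts in scramble mice 1 to 3 against 1044, 1184 and 1519.8 in knockdown mice 1 to 3 (−0.32, edgeR adjusted p = 0.216). Of 22 genes shared by endothelium of all vessels, 0 were called by edgeR, DESeq2 or voom and 0 had an unadjusted p under 0.05 by edgeR, with a median of −0.11. The most abundant of them were Ptprb, a vascular phosphatase (−0.10, edgeR adjusted p = 0.66), and Eng, a co-receptor for BMP ligands (−0.16, edgeR adjusted p = 0.317). With library sizes from the spike-ins these 2 values were 0.11 and 0.038. The 10 markers, with a median of −0.09, were thus close to both lists in size, and the difference between lists was not tested.

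A few genes of the endothelial surroundings did pass the test, as 6.32% of all genes did. Among 12 genes listed for the change of sinusoids into capillaries, basement membrane genes among them, 10 were tested (not Apln and Edn1) and 1 was called. This was Ednrb, an endothelin receptor that stellate cells also carry, which fell from a mean of 338.5 ± 17.2 normalized counts (SD, n = 3) to one of 230.5 ± 39 (SD, n = 3) (log2 fold change −0.55, edgeR adjusted p = 0.0342). Its call was lost with library sizes from the spike-ins (−0.35, edgeR adjusted p = 0.0926) and with limma on log2(TPM + 0.1) (−0.63, adjusted p = 0.0661). Cd34, which rises when sinusoids turn into capillaries, had 23.6, 47.2 and 51.7 normalized counts in scramble mice 1 to 3 against 21.9, 19 and 19 in knockdown mice 1 to 3 and was not called (−1.02, edgeR adjusted p = 0.0905). Among 10 genes of endothelial activation, 9 were tested (not Sele), and 2 were called higher and 1 lower. Bst2, an antiviral membrane protein, rose by 0.75 and the chemokine Cxcl10 by 0.89 on the log2 scale, while Nfkbia, the feedback inhibitor of NF-kappaB, fell by 0.72 (edgeR adjusted p = 0.00424, 0.0328 and 0.00867). Many cell types make these 3. Limma on log2(TPM + 0.1) did not call Cxcl10 (0.83, adjusted p = 0.0515). When 1 library was left out, Bst2 was called in 6 of 6 fits, Nfkbia in 5, Cxcl10 in 2 and Ednrb in 1.

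The VEGF system, in which Kdr is a receptor, had 9 of 10 genes tested (not Pgf), with 1 called higher and 1 lower. Over all genes tested, 3.09% were called higher and 3.23% lower, and 23.4% had an unadjusted p under 0.05. Nrp1, a co-receptor of Kdr that also binds semaphorins, rose from a mean of 1845 ± 179 normalized counts (SD, n = 3) to one of 3144 ± 729 (SD, n = 3) (log2 fold change 0.77, edgeR adjusted p = 0.0246). Vegfd, a ligand of the lymphatic receptor Flt4, fell from a mean of 68.9 ± 9.22 normalized counts (SD, n = 3) to one of 30.2 ± 2.11 (SD, n = 3) (−1.19, edgeR adjusted p = 0.0133). Vegfa, the main ligand of Kdr, had 1933, 1991 and 2157 normalized counts in scramble mice 1 to 3 against 1356, 1465 and 1878 in knockdown mice 1 to 3. All 3 knockdown libraries lay below the scramble libraries without Vegfa being called (−0.37, edgeR adjusted p = 0.0888). Vegfb (−0.64, edgeR adjusted p = 0.0613) and Nrp2 (−0.35, edgeR adjusted p = 0.136) had an unadjusted p under 0.05 as well, and Flt1, the other main receptor, had a value of −0.11 (edgeR adjusted p = 0.673). Vegfa, Vegfb, Nrp2 and Flt1 were named after their values were seen. Limma on log2(TPM + 0.1) did not call Nrp1 (0.67, adjusted p = 0.0783), and Nrp1 was called in 2 and Vegfd in 3 of the 6 fits that left out 1 library.

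In the BMP system, to which Bmp2 belongs, 0 of 13 ligands, receptors and regulators were called by edgeR, DESeq2 or voom, and 1 had an unadjusted p under 0.05, the type I receptor Bmpr1a (0.25, edgeR adjusted p = 0.121). Among all genes, edgeR called 6.32% and 23.4% had an unadjusted p under 0.05. Bmp6, the other ligand that sinusoidal endothelium gives to hepatocytes, was named after its values were seen. Like Bmp2, it was highest among the knockdown libraries in replicate 3, with 104, 133 and 107 normalized counts in scramble mice 1 to 3 against 84.9, 82.7 and 124 in knockdown mice 1 to 3 (−0.23, edgeR adjusted p = 0.517). The most abundant genes of the list were Tfr2, an iron-sensing receptor of hepatocytes (−0.09, edgeR adjusted p = 0.637), and Tmprss6, a protease that restrains hepcidin (−0.04, edgeR adjusted p = 0.87), with values of 0.11 and 0.16 under library sizes from the spike-ins.

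Of 8 genes induced through SMAD1 and SMAD5 by BMP ligands, edgeR called 0, where it called 6.32% of all genes. An unadjusted p under 0.05 was found for 3, where 23.4% of all genes had one. These were Id2 (0.44, edgeR adjusted p = 0.0756), Id3 (0.98, edgeR adjusted p = 0.0771) and Atoh8 (−0.79, edgeR adjusted p = 0.0501). DESeq2 called these 3 and voom Id3 and Atoh8. They did not share a direction. Hamp, which encodes hepcidin, varied widely, with 1723, 3503 and 4439 normalized counts in scramble mice 1 to 3 against 2931, 5621 and 2903 in knockdown mice 1 to 3. The groups overlapped between 2903 and 4439 normalized counts, with 1 knockdown library above and 1 scramble library below that range (0.25, standard error 0.475, edgeR adjusted p = 0.809).

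**Figure D4:**
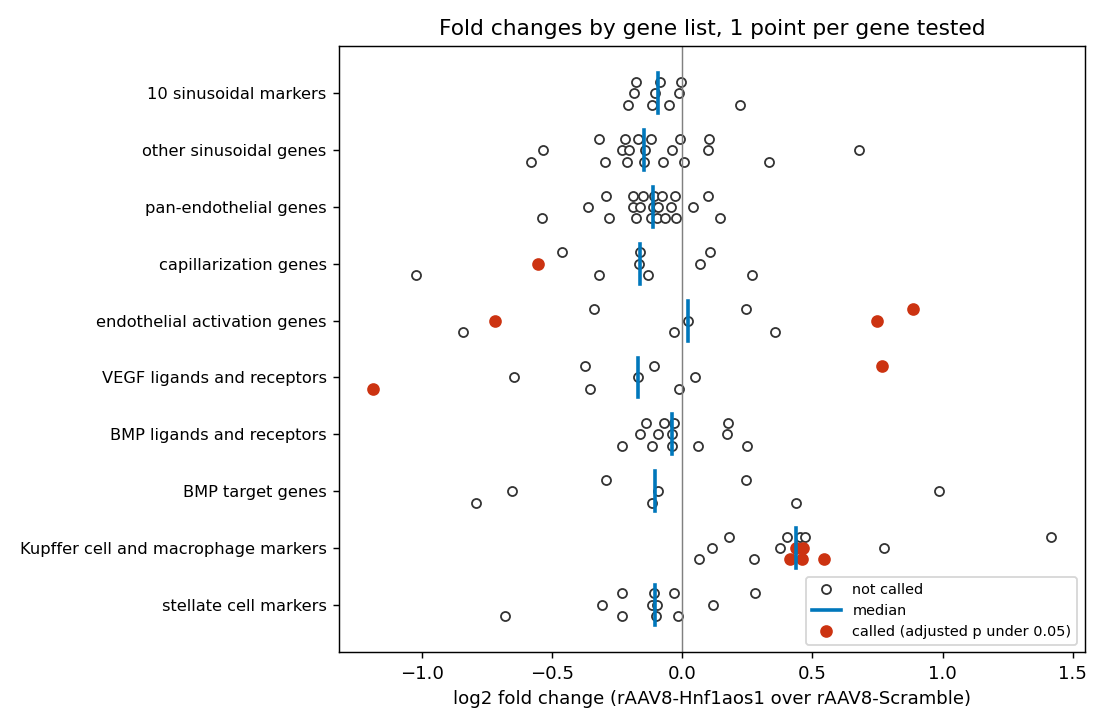
Log2 fold change of each gene tested (horizontal axis), 1 row per list of genes and 1 point per gene, with filled red points for called genes and blue bars for the list's median. The 10 sinusoidal markers lie between −0.21 and 0.22 with none called, while all 15 Kupffer cell and macrophage markers lie above 0.

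Macrophages express several of the 10 genes, and their own markers lay above 0. All 15 Kupffer cell and macrophage markers were tested, all 15 lay above 0 with a median of 0.44, and 5 were called by edgeR, 6 by DESeq2, 4 by voom and 0 by limma on log2(TPM + 0.1). Among all genes these methods called 6.32%, 7.8%, 5.52% and 3.83%, in the same order. In 11 of the 15 the groups did not overlap, with the knockdown libraries higher, where 15.2% of all genes did. The lysozyme gene Lyz2 rose by 0.46, the complement genes C1qa and C1qb by 0.55 and 0.46, and Clec4f, a lectin particular to Kupffer cells, by 0.44 on the log2 scale (edgeR adjusted p = 0.0223, 0.0277, 0.0458 and 0.0327). Clec4f had 1179, 1045 and 985 normalized counts in scramble mice 1 to 3 against 1516, 1540.4 and 1292 in knockdown mice 1 to 3. The fifth was Adgre1, the F4/80 antigen (0.41, edgeR adjusted p = 0.0485). Adgre1 was called by neither DESeq2 nor voom (adjusted p = 0.0748 and 0.0612), and C1qb not by voom (adjusted p = 0.0731). DESeq2 called Cd5l and Marco beside Lyz2, C1qa, C1qb and Clec4f, and voom Cd5l beside Lyz2, C1qa and Clec4f. With library totals in place of TMM, edgeR called neither Clec4f (adjusted p = 0.0516) nor C1qb (adjusted p = 0.0865) nor Adgre1 (adjusted p = 0.0865). The list's summed TPM was 343 to 415 in the scramble and 423 to 530.1 in the knockdown libraries, and none of its genes was at 0 in all libraries. Between 0 and 9 of the 15 were called in the fits that left out 1 library, with 0 when scramble mouse 2, scramble mouse 3 or knockdown mouse 2 was absent. Mrc1, Stab1 and Fcgr2b, which macrophages also express, had fold changes below 0 and Lyve1 above 0, as given above, and the part of macrophage RNA in these values was not tested.

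Of 6 IgG receptor genes, Fcgr2b among them and all tested, 1 was called, the activating receptor Fcgr1, which rose from a mean of 25.6 ± 5.61 normalized counts (SD, n = 3) to one of 54.8 ± 10.6 (SD, n = 3) (log2 fold change 1.09, edgeR adjusted p = 0.0388). Among all genes, edgeR called 6.32% and 23.4% had an unadjusted p under 0.05. Fcgr4 (0.70, edgeR adjusted p = 0.163) and Fcer1g, the signalling chain of the activating receptors (0.35, edgeR adjusted p = 0.199), had an unadjusted p under 0.05 as well. Fcgr1 was not called by voom (1.07, adjusted p = 0.0522) or by limma on log2(TPM + 0.1) (0.97, adjusted p = 0.0621), and without 1 library it was called in 2 of 6 fits. With library sizes from the spike-ins 4 of the 6 were called, Fcgr1, Fcgr3, Fcgr4 and Fcer1g. In that scaling 20.8% of all genes were called, and the median of all genes was 0.20. Of 15 endocytic scavenger and lectin receptors, 5 of them among the 10 markers, 14 were tested (not Cd209b) and 0 were called by edgeR. Marco, a macrophage scavenger receptor (1.41, edgeR adjusted p = 0.0797), and the HDL receptor Scarb1 (0.28, edgeR adjusted p = 0.0987) had an unadjusted p under 0.05, and DESeq2 called Marco and voom 0.

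Stellate cells lie under the sinusoidal endothelium and their markers were tested beside it. Among all genes, edgeR called 6.32% and 23.4% had an unadjusted p under 0.05. Of the 12 stellate markers, 0 were called by edgeR, DESeq2 or voom, with a median of −0.10. An unadjusted p under 0.05 was found for 1 of these markers, the intermediate filament gene Des (−0.68, edgeR adjusted p = 0.074). Their summed TPM was 287 to 343 in the scramble and 233 to 309 in the knockdown libraries, and none was at 0 in all libraries. The 5 markers of lymphatic endothelium, another possible source of Lyve1, held 4 tested genes (not Pdpn) with 0 called by edgeR, DESeq2 or voom and 0 at an unadjusted p under 0.05. Their summed TPM of 107 to 112 in the scramble and 91 to 134 in the knockdown libraries includes Prox1 and Reln, which hepatocytes and stellate cells express.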

How the data were processed

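RNA was extracted from the livers of 6 mice and sequenced as read pairs. The methods name a poly(A) library kit, the labels depletion of ribosomal RNA. The authors trimmed reads with Trimmomatic 0.39, aligned them with STAR 2.7.3a and assigned uniquely mapped exonic reads to genes with featureCounts 2.0.1, which gave the deposited raw counts (40895 features, 92 of them ERCC spike-ins). The build is GRCm38 in the methods and GRCm39 in the submitters' processing notes, and the strand setting is not given in the sources used here. Deposited TPM values for these features were used for levels. Their normalized counts and their table of comparisons, which holds log2 fold changes and p-values, were not used. Start regions came from RefSeq on GRCm38.p6 by symbol. Sex, age, dose volume and time come from the study's methods.

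Spike-ins were 1.38% to 1.52% of the counts in the scramble libraries and 1.18% to 1.24% in the knockdown libraries. They entered neither library sizes nor tests, except as the library sizes of the alternative named for them. In R 4.3.3 with edgeR 4.0.16, counts were scaled by TMM, filtered by filterByExpr and compared with robust quasi-likelihood fits on group, with Benjamini-Hochberg adjustment over 16327 genes. Intervals are 95% intervals from the fit. Exact permutation tests were two-sided. The common biological coefficient of variation was 13.9%. Alternatives used DESeq2 1.42.0, limma 3.58.1, other scalings, filters of no minimum or a mean of 50 counts, a pseudocount of 0.1 or 1 on TPM, the replicate number as a block, and each library left out. No library was a copy of another (chi-square of 7.73 to 31.9 per gene within groups, about 1 being sampling noise).

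Named genes are the 10 markers, Hnf1aos1 and, of 16 other lists, the called genes (at most 4, with the fifth Kupffer marker named in addition), or where none was called the 2 most abundant for lists of endothelium and BMP signalling and counts alone for the rest. Genes with an unadjusted p under 0.05 were named beside small counts after their values were seen. This narrows the naming rule written at the start. Ratios within libraries, overlap in TPM and motifs were added after the data had been seen. The members and lists were chosen with earlier results of these data known. The scripts were tested on 3 simulated datasets in which 200 genes changed by 1 on the log2 scale. On average edgeR recovered 66.2% of these, DESeq2 67.5% and voom 63.8%. False calls made up 9.36%, 11.8% and 5.91% of their calls at an adjusted p under 0.05. Smaller changes were not simulated.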

Additional observations from a re-analysis of the deposited data

How the results depend on the processing

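The number of markers called was 0 with edgeR and in 15 of the 16 alternatives, and 1 with library sizes from the spike-ins. All genes called were 1032, 3394 with library sizes from the spike-ins, 1902 without a filter on low counts, 626 and 638 with limma on TPM plus 0.1 and 1, 817 to 1273 in the other fits of all 6 libraries on counts, and 103 (without scramble replicate 3) to 1881 (without knockdown replicate 3) with 1 library left out. Library sizes from the spike-ins turned the sign of 8 markers, to 0.10 for Stab1, 0.024 for Stab2, 0.20 for Clec4g, 0.15 for Pecam1, 0.19 for Kdr, 0.12 for Oit3, 0.020 for Mrc1 and 0.087 for Bmp2, and of Flt1 (0.092), Ptprb (0.11), Eng (0.038), Tfr2 (0.11) and Tmprss6 (0.16). These values follow the shift of the median of all genes to 0.20. Leaving out 1 library turned 4 markers, within −0.13 to 0.088 for Clec4g, −0.12 to 0.016 for Pecam1, −0.11 to 0.10 for Kdr and −0.21 to 0.017 for Oit3, and the genes Tmprss6 (−0.11 to 0.048) and Hamp (−0.14 to 0.54). The cause was not tested. In all, 143 of 160 values of single markers kept direction and side of the threshold. With the replicate block, 0 markers and 878 genes were called, and Fcgr1, C1qb, Adgre1 and Ahsg were not (edgeR adjusted p = 0.0621, 0.0571, 0.0669 and 0.0799). Same-numbered libraries of the groups did not deviate together (correlations of −0.0226, 0.0231 and 0.00321). These values cannot show whether the mice were paired in housing or handling. Depth limited Lyve1 most among the markers, at 128 to 207 raw counts.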

Other observations

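Of 10 hepatocyte markers, all tested, 2 were called higher and 1 lower by edgeR, where 6.32% of all genes were called, 4 by DESeq2 and 3 by voom. Fgb, a fibrinogen chain of the acute phase, rose by 1.11 and Ahsg, a secreted glycoprotein, by 0.52, while Tat, an amino acid enzyme induced by glucocorticoids, fell by 0.72 on the log2 scale (edgeR adjusted p = 0.00682, 0.0345 and 0.00766). Limma on log2(TPM + 0.1) did not call Ahsg (0.44, adjusted p = 0.115). The 10 genes summed to between 85788 and 99342 TPM in the libraries labelled as liver. Of the 8 cholangiocyte markers 6 were tested (not Krt7 and Cftr), with 0 called by edgeR, DESeq2 or voom. None had an unadjusted p under 0.05, where 23.4% of all genes did by edgeR. Of the 10 lymphocyte markers 8 were tested (not Cd3g and Klrb1c), with 0 called by edgeR, DESeq2 or voom and 1, Cd4, at an unadjusted p under 0.05 (0.54, edgeR adjusted p = 0.205). Of the 8 neutrophil and monocyte markers 4 were tested (not S100a8, S100a9, Ly6g and Mmp8), with 0 called by edgeR, DESeq2 or voom and 1, Cd14, at an unadjusted p under 0.05 (0.91, edgeR adjusted p = 0.124). Raw counts in scramble mice 1 to 3 against knockdown mice 1 to 3 were 1, 1 and 2 against 7, 11 and 4 for S100a8. For S100a9 they were 2, 1 and 0 against 12, 9 and 6. Both lay higher without overlap, at very low counts, and were not tested. Mmp8 overlapped and Ly6g was at 0 in all libraries.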
